A study of Mus musculus with 24 samples.

Results

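Imprinted genes that act on growth were followed in the inguinal white adipose tissue, the subcutaneous fat of the groin, of 24 young mice. The group consists of 10 genes taken by symbol from a fixed list: Dlk1, Igf2, Igf2r, Grb10, Cdkn1c, Plagl1, Peg3, Ndn, Mest and Nnat. All 10 were among the 16118 genes of the deposited table, and all 10 passed the filter on low reads that left 16005 genes for testing. The animals formed 6 groups of 4. Males and females were taken at postnatal day 21 (p21), or at day 28 (p28) after standard weaning (SW), in which the pup was separated from its mother at p21, or after delayed weaning (DW), in which it stayed with her. All animals were sampled as whole tissue, 1 poly(A) RNA library per mouse, and no treatment, transgene or mutation is labelled. Strain and litter are not given in the sources used here, so spread between animals of a group may hold litter differences. The comparisons ask how these genes change between p21 and p28, whether they differ between the weaning regimes, and whether the sexes differ.

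An imprinted gene is transcribed mainly from the copy inherited from a given parent, because DNA methylation laid down in the germ line marks the maternal and paternal copies differently. Many imprinted genes raise or restrain growth before and shortly after birth, and several of them fall in many organs as growth slows. In white fat, Dlk1 is known as a preadipocyte protein whose shed form restrains fat cell differentiation, and Mest is known as a gene that goes with the enlargement of fat cells. RNA levels of whole tissue do not show which parental copy was transcribed, and fewer cells of a type cannot be told apart from less RNA per cell.

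Values are the authors' deposited normalised values, which are reads scaled per library to about per-million size. Recovered reads ranged from 57600711 to 302145813 per library. p21 male 53 had the fewest reads and the fewest detected genes (14054), and SW male 84 had the next fewest of both (76850086 reads and 15497 genes). Reads behind a single value ran from 34, for Igf2, to 109836, for Nnat, and the gene with the next lowest minimum was Dlk1, with 105. Adipocyte markers were present in every library, with a summed level of 14113 to 24494 over 8 genes. The depot also held other tissues in varying amounts. The sum of 10 skeletal muscle markers ran from 38.0 to 7909, and that of 9 mammary epithelial markers from 41.8 to 361.6 in females and from 0.339 to 41.3 in males. In males, 9 of the 10 muscle markers rose from p21 to SW and 8 rose from p21 to DW, where 6.90% and 8.86% of all genes rose. In females, 7 of the 9 mammary markers rose from p21 to SW, where 7.39% of all genes rose. All 10 muscle markers were also higher in SW than p21 females (median log2 change 3.26) and lower in DW than SW females (-3.09). None of these muscle differences in females was called. All 9 mammary markers were lower in DW than SW females (median log2 change -1.15), with 1 called.

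Promoter sequence is shown for the genes that were called in the same direction in both sexes between p21 and p28, which were Dlk1, Ndn and Mest. Each run is the 250 bases before the RefSeq transcription start (GRCm38.p6), written in the direction of the gene, with CG dinucleotides, the sites of DNA methylation, in capitals. The stretches lie at chr12:109452573-109452822 for Dlk1, chr7:62348027-62348276 for Ndn and chr6:30737800-30738049 for Mest, all on the plus strand. Mest has 3 listed starts, and the one with the most CG dinucleotides and the lowest coordinate among equals is shown.
Dlk1: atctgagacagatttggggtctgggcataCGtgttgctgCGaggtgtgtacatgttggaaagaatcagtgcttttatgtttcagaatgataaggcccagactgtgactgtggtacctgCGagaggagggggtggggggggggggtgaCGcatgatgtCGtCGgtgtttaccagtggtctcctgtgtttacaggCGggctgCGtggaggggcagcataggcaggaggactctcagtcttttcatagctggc
Ndn: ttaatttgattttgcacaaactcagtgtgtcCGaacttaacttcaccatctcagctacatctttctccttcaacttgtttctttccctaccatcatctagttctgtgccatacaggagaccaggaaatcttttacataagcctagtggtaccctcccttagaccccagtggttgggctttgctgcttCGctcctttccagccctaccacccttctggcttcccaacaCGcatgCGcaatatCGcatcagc
Mest: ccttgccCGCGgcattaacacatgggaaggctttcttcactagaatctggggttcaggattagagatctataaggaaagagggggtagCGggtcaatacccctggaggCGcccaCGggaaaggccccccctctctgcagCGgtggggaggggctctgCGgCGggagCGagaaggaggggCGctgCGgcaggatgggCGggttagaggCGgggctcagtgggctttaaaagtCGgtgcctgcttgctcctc

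These stretches held 8 CG dinucleotides in Dlk1, 5 in Ndn and 14 in Mest, against a median of 6 over the 32851 listed mouse promoters. Grb10, a gene with 2 listed starts, had the most CG dinucleotides of the group in 1 of them, 40. The bases right after that start were not found in a GENCODE M21 transcript of Grb10, and the same held for Igf2r. PLAGL1 and YY1 are transcription factors whose motifs have been described at imprinted genes, so the letters GGGGCCCC (PLAGL1) and AAGATGGC (YY1) were searched on both strands. Of 15 stretches of 9 of these genes, 1 held GGGGCCCC, that of Peg3, against 0.89% of all promoters. None of the 15 held AAGATGGC, which was in 1.56% of all promoters. A match describes letters only, and methylation was not measured.

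**Figure D1:**
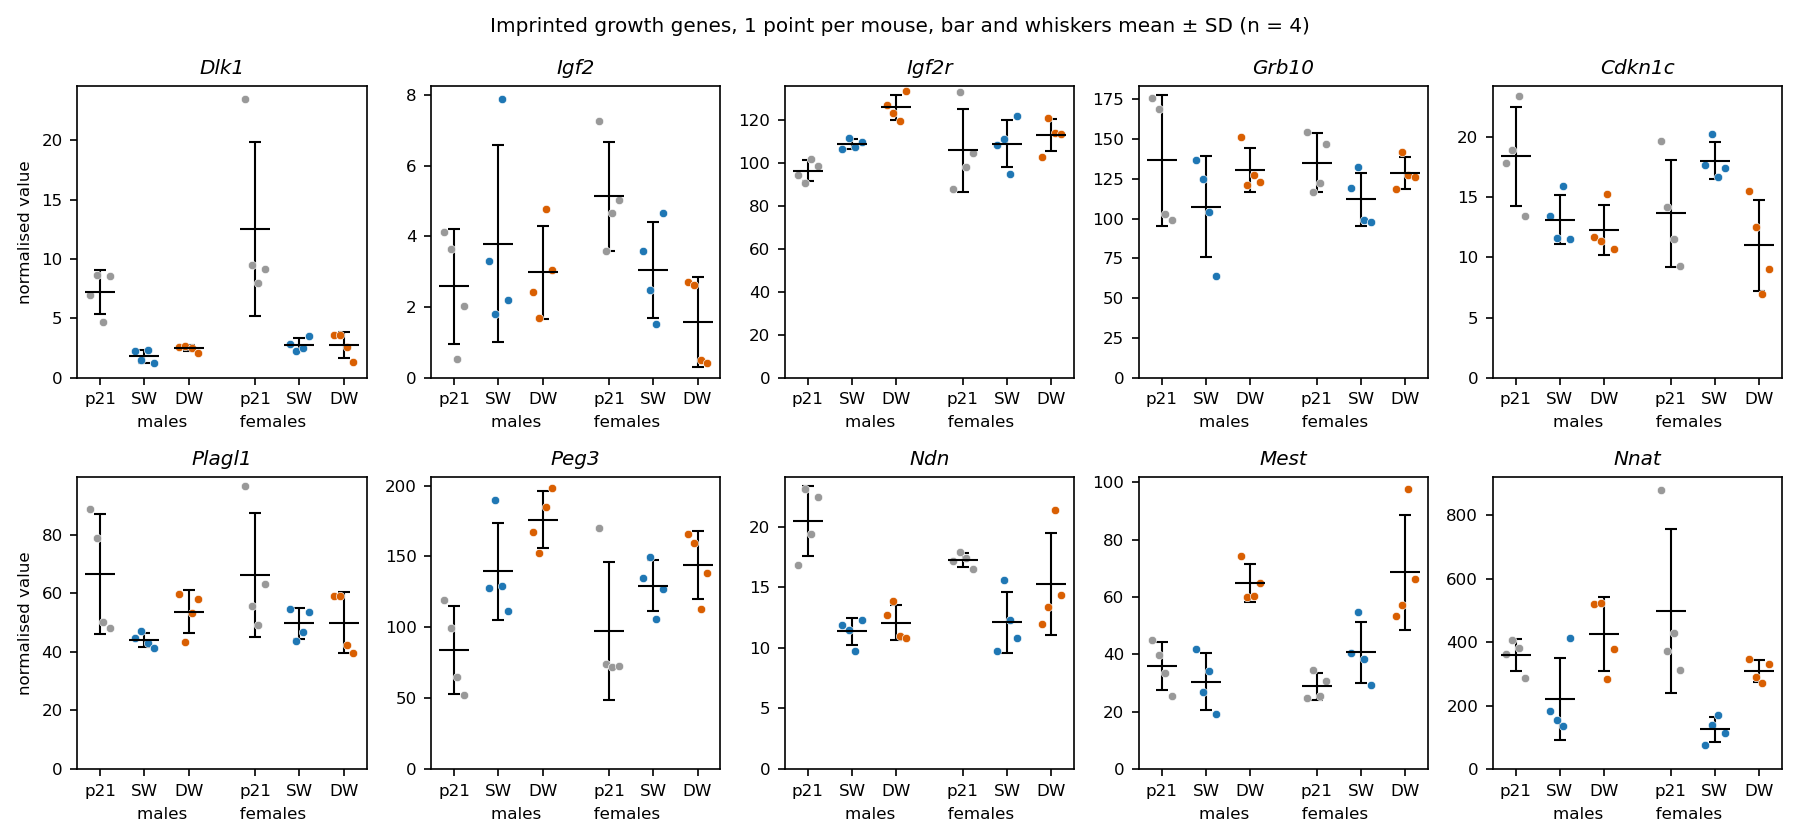
Normalised value (vertical axis, starting at 0, own scale for each gene) of the 10 imprinted genes in 24 mice, in males (left) and females (right) at p21 and at p28 after standard (SW) or delayed weaning (DW); points are mice, bars and whiskers the mean ± SD of 4. Every p28 point of Dlk1 lies below every p21 point of the same sex, the DW points of Mest lie above the p21 points, and Nnat is lowest in SW females.

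Between p21 and p28 after standard weaning, Dlk1 and Ndn fell in both sexes, Nnat fell in females, and Peg3 rose in males. In females 3 of the 10 genes fell and 0 rose, where 4.23% of all tested genes fell and 7.39% rose. In males 2 fell and 1 rose, where 4.97% of all genes fell and 6.90% rose. The median change of the 10 genes was -0.32 in females and -0.40 in males on the log2(value + 1) scale, against 0.012 and 0.015 over all genes. Between p21 and p28 after delayed weaning, 2 of the 10 genes fell and 1 rose in females, where 6.16% of all genes fell and 5.95% rose. In males 2 fell and 3 rose, where 6.10% fell and 8.86% rose. The SW and the DW comparison use the same p21 animals, so their values are given side by side and are not independent. The 10 genes were chosen with earlier results of these data known, so the shares and medians here and below are descriptions.

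Dlk1 (ENSMUSG00000040856, chromosome 12) encodes a membrane protein that is cut to a soluble form and restrains adipocyte differentiation. Its values in males were 6.99, 8.64, 4.70 and 8.59 at p21, 2.27, 1.47, 2.28 and 1.22 after SW, and 2.62, 2.69, 2.50 and 2.09 after DW. In females they were 23.5, 9.51, 7.94 and 9.14 at p21, 2.80, 2.21, 2.53 and 3.49 after SW, and 3.56, 3.55, 2.60 and 1.29 after DW. All 8 p28 mice of each sex lay below all 4 p21 mice of that sex, and p21 female 30 stood far above the other p21 females. In females the change was -1.73 ± 0.26 (SE) after SW (limma, adjusted p = 0.00011) and -1.77 ± 0.26 after DW (limma, adjusted p = 0.00023). In males it was -1.54 ± 0.26 after SW (limma, adjusted p = 0.00072) and -1.22 ± 0.26 after DW (limma, adjusted p = 0.0042). These 4 calls held in each alternative fit that was run, including each fit without 1 mouse. Within groups, Dlk1 varied with the adipocyte marker sum, with r = 0.78, rho = 0.80 and r = 0.75 without the 2 mice farthest from the median in Dlk1, over 24 mice and as a description. p21 female 30 had the highest adipocyte sum of the p21 females (22997, against 17435 to 17724 in the others), and its part in the high Dlk1 value was not tested.

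Igf2 (ENSMUSG00000048583, chromosome 7) encodes a fetal growth factor that signals through the IGF1 and insulin receptors. Per kilobase of exon it was the lowest of the 10 genes, at 0.556 averaged over all mice. In females its values were 7.25, 3.58, 4.65 and 5.02 at p21, 3.58, 2.48, 1.52 and 4.65 after SW, and 2.71, 2.62, 0.490 and 0.425 after DW. The p21 and DW females did not overlap, and the lowest DW values were those of females 82 and 83. The female change from p21 to DW was -1.37 ± 0.41 (SE; limma, adjusted p = 0.030). It was lost in both edgeR fits on the recovered reads (adjusted p = 0.075 with TMM), with only the compared groups (limma adjusted p = 0.067) and without p21 female 30, 55 or 56, without DW female 82 or 83 (limma adjusted p = 0.054 to 0.12), or without both of the latter (-0.71, limma adjusted p = 0.38). DW females 82 and 83 also had the lowest adipocyte sums of the p28 females, 16511 and 16550, whose part was not tested. In males Igf2 averaged 2.58 ± 1.64 (SD, n = 4) at p21, 3.79 ± 2.79 after SW and 2.98 ± 1.32 after DW, with overlapping groups.

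Igf2r (ENSMUSG00000023830, chromosome 17) encodes the receptor that takes up IGF2 for breakdown. It was the steadiest of the 10 genes, with 1.52-fold between the highest and the lowest of the 24 mice. Male values were 94.4, 90.6, 102 and 98.7 at p21, 106, 112, 108 and 109.5 after SW, and 127, 123, 119 and 133 after DW. The 3 male groups did not overlap and rose in that order. The change from p21 to DW was 0.38 ± 0.10 (SE; limma, adjusted p = 0.013), and this call was lost with skeletal muscle, mammary and lymph node scores as covariates (limma adjusted p = 0.14). The changes from p21 to SW (0.17, interval -0.03 to 0.38) and from SW to DW (0.21, interval 0.00 to 0.41) were not called (limma, 95% intervals). In females the group means lay between 105.9 and 112.9, and the groups overlapped.

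Grb10 (ENSMUSG00000020176, chromosome 11) encodes an adaptor that damps insulin and IGF1 receptor signalling, and Cdkn1c (ENSMUSG00000037664, chromosome 7) an inhibitor of cyclin-dependent kinases. Neither was called in any comparison. Grb10 group means lay between 107.6 and 136.6, and the p21, SW and DW groups overlapped in both sexes. Cdkn1c values in females were 19.7, 14.2, 11.6 and 9.30 at p21, 17.7, 20.3, 16.7 and 17.5 after SW, and 15.5, 12.5, 6.97 and 9.04 after DW. All DW females lay below all SW females. The difference was -0.72 (95% interval -1.16 to -0.27; limma, adjusted p = 0.10), and it was called without DW female 76 (-0.89, limma adjusted p = 0.016) or DW female 77 (-0.79, limma adjusted p = 0.049). It was not called in the other 18 of 20 alternatives, and over all 20 the difference ran from -0.89 to -0.35. In males Cdkn1c averaged 18.4 ± 4.11 (SD, n = 4) at p21, 13.1 ± 2.04 after SW and 12.3 ± 2.08 after DW. The male difference between p21 and DW was called with the tissue scores as covariates (-0.85, limma adjusted p = 0.0498) and not otherwise.

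Plagl1 (ENSMUSG00000019817, chromosome 10) and Peg3 (ENSMUSG00000002265, chromosome 7) encode zinc finger transcription factors. Peg3 values in males were 119, 99.4, 65.1 and 52.0 at p21, 128, 189.6, 129 and 112 after SW, and 167, 152, 185 and 198 after DW. All DW males lay above all p21 males, while the SW and p21 males overlapped. From p21 to DW the male change was 1.12 ± 0.25 (SE; limma, adjusted p = 0.0056), and the call was lost with the tissue scores as covariates (0.73, limma adjusted p = 0.076). From p21 to SW it was 0.77 ± 0.25 (limma, adjusted p = 0.049), and that call was lost in both edgeR fits (adjusted p = 0.075 with TMM), with the tissue scores as covariates (0.51, limma adjusted p = 0.24), without a variance trend (limma adjusted p = 0.053), with only the compared groups (limma adjusted p = 0.10) and without p21 male 53 or 54 or SW male 78, 84 or 85 (limma adjusted p = 0.074 to 0.16). Without p21 male 53 and SW male 84 together, the libraries of least depth, the change from p21 to SW was 0.52 (limma adjusted p = 0.31). p21 males 53 and 54 also had the lowest progenitor sums of their group (507 and 541, against 762 and 799) and its highest lymph node sums (767 and 540.4, against 390.3 and 404), and the part of the progenitor sum was not tested.

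In females, Peg3 was 170.0 in p21 female 30 and 74.4, 72.1 and 73.0 in the other p21 mice. After SW it was 135, 149.6, 106 and 127, and after DW 166, 159, 113 and 138. Apart from p21 female 30, every p28 female lay above every p21 female. With all mice neither female change was called in the reported fit (limma, adjusted p = 0.23 after SW and 0.095 after DW), and the change after DW was called with the tissue scores as covariates (0.74, limma adjusted p = 0.022). Without p21 female 30 both were, at 0.80 after SW (limma, adjusted p = 0.023) and 0.95 after DW (limma, adjusted p = 0.010). Plagl1 was not called in any comparison. In males it was 88.7, 78.8, 50.1 and 48.2 at p21 and 44.6, 46.9, 43.2 and 41.4 after SW. The p21 males were all above the SW males, with p21 males 53 and 54 nearest to them. The difference was -0.53 (95% interval -0.94 to -0.12; limma, adjusted p = 0.081), which was called by DESeq2 (-0.59, adjusted p = 0.031) and without p21 male 54 (-0.67, limma adjusted p = 0.039). It was not called in the other 16 of 18 alternatives, and over all 18 the difference ran from -0.68 to -0.38.

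Ndn (ENSMUSG00000033585, chromosome 7) encodes necdin, a growth-restraining protein of the MAGE family. Male values were 16.9, 23.1, 19.4 and 22.5 at p21, 11.9, 11.5, 9.75 and 12.3 after SW, and 12.7, 13.8, 11.0 and 10.8 after DW. All p28 males lay below all p21 males. The male changes were -0.79 ± 0.15 (SE) after SW (limma, adjusted p = 0.0021) and -0.71 ± 0.15 after DW (limma, adjusted p = 0.0043), and with the tissue scores as covariates they were -0.69 (limma adjusted p = 0.052) and -0.65 (limma adjusted p = 0.056). Female values were 17.2, 17.9, 17.4 and 16.5 at p21, 9.73, 15.6, 12.3 and 10.8 after SW, and 12.0, 13.4, 21.4 and 14.3 after DW. The SW females all lay below the p21 females, and DW female 82 lay above them. From p21 to SW the female change was -0.50 ± 0.15 (limma, adjusted p = 0.037). That call was lost without any of the p21 females 30, 36, 55 and 56 and without SW female 73, 75 or 81 (limma adjusted p = 0.061 to 0.13), and the change was -0.33 with the tissue scores as covariates (limma adjusted p = 0.54).

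**Figure D2:**
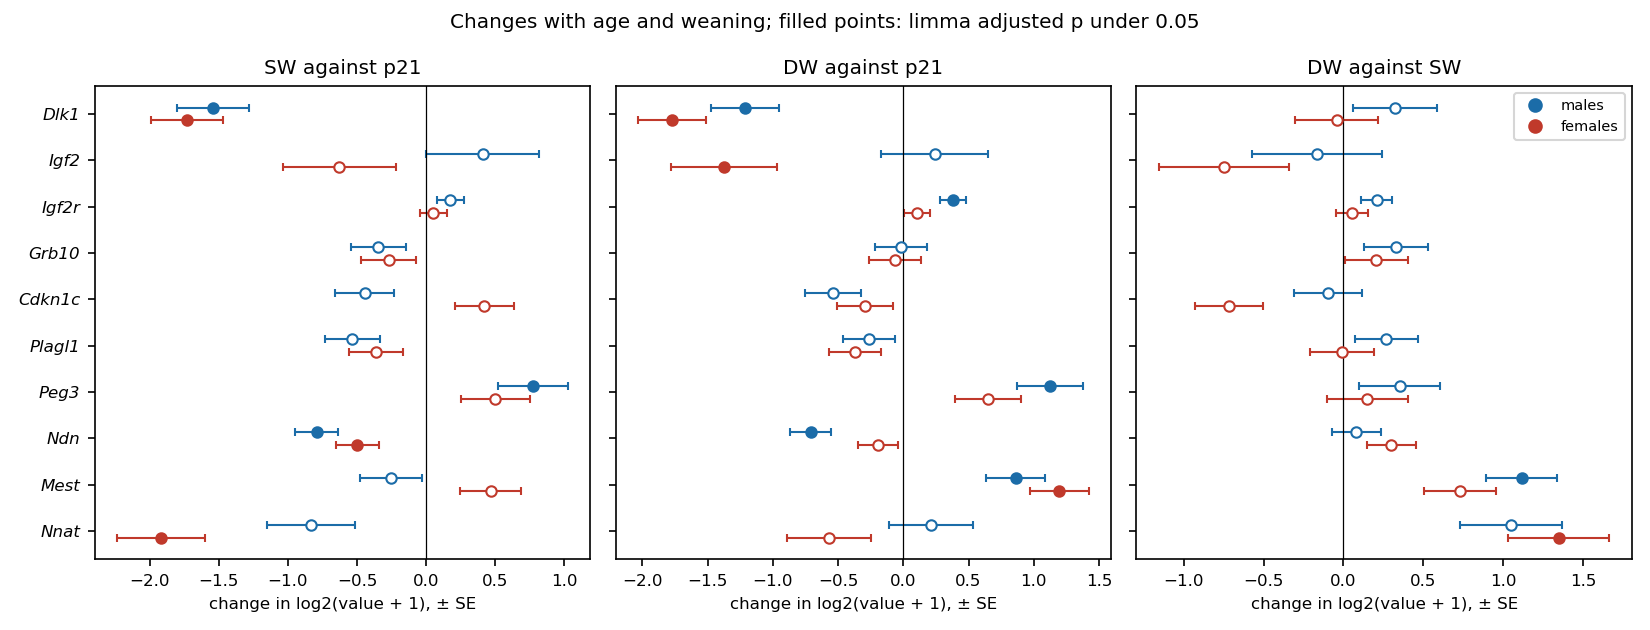
Change of each gene (horizontal axis, log2(value + 1), bars ± SE from limma) from p21 to SW, from p21 to DW and from SW to DW, in males (blue) and females (red); filled points have an adjusted p under 0.05. Dlk1 is filled in all 4 changes with age and in neither change with weaning, and Mest and Nnat lie to the right of 0 for both sexes in the weaning panel.

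Between the weaning regimes, Mest differed in males and Nnat in females. In each sex 1 of the 10 genes was higher after DW than after SW and 0 were lower. Over all genes 0.462% were higher and 0.812% lower in females, and 0.231% were higher and 0.0250% lower in males. The 10 genes had a median difference of 0.10 in females and 0.30 in males, against -0.025 and 0.0037 over all genes.

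Mest (ENSMUSG00000051855, chromosome 6) encodes an enzyme of the alpha/beta hydrolase family. Male values were 45.2, 39.9, 33.4 and 25.6 at p21, 42.0, 26.7, 34.2 and 19.2 after SW, and 74.5, 60.002, 60.5 and 64.975 after DW. Every DW male lay above every other male. The male change was 1.12 ± 0.22 (SE) from SW to DW (limma, adjusted p = 0.029) and 0.86 ± 0.22 from p21 to DW (limma, adjusted p = 0.014), the latter lost with the tissue scores as covariates (0.74, limma adjusted p = 0.11). Female values were 24.7, 34.6, 25.4 and 30.7 at p21, 40.5, 54.9, 38.6 and 29.2 after SW, and 53.5, 57.2, 97.8 and 66.2 after DW. The DW females lay above all p21 females, and DW female 76 fell just below SW female 74. The female change from p21 to DW was 1.20 ± 0.22 (limma, adjusted p = 0.0015), which was called in each alternative fit. The female difference between SW and DW was 0.73 (95% interval 0.27 to 1.19; limma, adjusted p = 0.12), which was called by DESeq2 (0.77, adjusted p = 0.0497) and without DW female 76 (0.83, limma adjusted p = 0.032). It was not called in the other 18 of 20 alternatives, and over all 20 the female difference ran from 0.46 to 0.88. The male call between SW and DW was lost in both edgeR fits (1.08 with TMM, adjusted p = 0.057), with the tissue scores as covariates (1.05, limma adjusted p = 0.057) and without SW male 84 or 124 or any of the DW males 79, 80, 86 and 87, where the difference stayed between 0.92 and 1.15 (limma adjusted p = 0.056 to 0.14).

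Nnat (ENSMUSG00000067786, chromosome 2) encodes neuronatin, a small membrane proteolipid of the endoplasmic reticulum. Per kilobase of exon it was the highest of the 10 genes, at 177 averaged over all mice, with Grb10 next at 13.8. Female values were 879, 371, 428 and 312 at p21, 76.2, 139.9, 171 and 115 after SW, and 346, 289.6, 269.9 and 330.1 after DW. Every SW female lay below every p21 and every DW female, while p21 and DW females overlapped. The female change was -1.92 ± 0.32 (SE) from p21 to SW (limma, adjusted p = 0.00029) and -0.57 from p21 to DW (95% interval -1.23 to 0.09; limma, adjusted p = 0.25). The first was -1.52 with the tissue scores as covariates (limma adjusted p = 0.10). DW females exceeded SW females by 1.35 ± 0.32 (limma, adjusted p = 0.038). That call was lost in both edgeR fits (1.34 with TMM, adjusted p = 0.077), with the tissue scores as covariates (1.15, limma adjusted p = 0.52), with a pseudocount of 0.1 (limma adjusted p = 0.067), with only the compared groups (limma adjusted p = 0.15) and without SW female 73, 74 or 81 or DW female 82 or 83 (1.13 to 1.42, limma adjusted p = 0.063 to 0.14).

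In males Nnat was 361, 408, 382 and 288 at p21, 183, 153, 137 and 413 after SW, and 521, 522, 284 and 378 after DW. The SW males other than 124 lay below all p21 and all DW males, and SW male 124 lay above all 4 p21 males. With all mice neither male change was called, at -0.83 from p21 to SW (95% interval -1.50 to -0.17; limma, adjusted p = 0.090) and 1.05 from SW to DW (interval 0.39 to 1.71; limma, adjusted p = 0.29). Without SW male 124 both were, at -1.18 (limma, adjusted p = 0.013) and 1.40 (limma, adjusted p = 0.045). SW male 124 carried an animal number outside the runs 73 to 80 and 81 to 87 of the other p28 mice. Within those runs, DW exceeded SW for Nnat by 1.51 and 1.17 in males and by 1.37 and 1.37 in females. For Mest the same differences were 0.66 and 1.03 in males and 0.32 and 1.43 in females, each resting on 1 to 3 mice a side. With the run as a covariate, Nnat was called in males (1.34, limma adjusted p = 0.041) and Mest was not (0.90, limma adjusted p = 0.12).

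Proliferation markers moved with weaning too. Of 8 such genes, 7 were higher in DW than SW females and 4 in DW than SW males, and their sum was 171 to 305 in DW and 111 to 148 in SW females, and 193 to 257 in DW and 81.0 to 121 in SW males. With the tissue scores as covariates all 4 male calls were kept, and of the 7 female calls only Prc1 was (limma adjusted p = 0.030, and 0.11 to 0.31 for the other 6). The 7 female changes ran from 0.68 to 1.34 in the reported fit and from 0.78 to 1.33 with the scores. Over all genes, the female calls went from 204 in the reported fit to 9 with the scores. Within groups, Mest varied with that sum, with r = 0.64, rho = 0.69 and r = 0.53 without the 2 mice farthest in Mest. Its part in the Mest difference was not tested. By whole gene span, Nnat overlaps Blcap and Mest overlaps Copg2 on the opposite strand. Their exons were not compared, and the strand setting of the counting is not given in the sources used here. Whether reads of such pairs were mixed is therefore not known. Blcap, itself an imprinted gene, also fell from p21 to SW in females, from 101.5 ± 20.0 to 73.6 ± 5.31 (SD, n = 4), with a change of -0.44 (limma, adjusted p = 0.024), which was -0.28 with the tissue scores as covariates (limma adjusted p = 0.42). Igf2, Igf2r, Cdkn1c, Ndn and Plagl1 also have an annotated antisense or opposite-strand RNA. Igf2 further overlaps Gm49394, an annotated protein-coding gene of the same strand that is absent from the deposited values.

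None of the 10 genes was called between females and males. At p21, 0.331% of all genes were higher and 0.0250% lower in females, at p28 after SW 3.36% and 0.181%, and after DW 1.89% and 0.569%. The differences of the 10 genes ran from -0.43 to 0.89 at p21, from -0.73 to 0.44 after SW and from -0.73 to 0.29 after DW. At an unadjusted p under 0.05 limma gave 2 of the 10 at p21, 1 after SW and 0 after DW, and edgeR with TMM and DESeq2 each gave 1, 1 and 1. The change from p21 to SW (age) and that from SW to DW (weaning) were also each tested for a sex difference. In neither was any of the 10 genes called, where 1.03% of all genes were called for age and 0.0187% for weaning. By limma, edgeR and DESeq2 alike, 3 of the 10 had an unadjusted p under 0.05 for age and 0 for weaning. The 3 by limma were Cdkn1c, whose change from p21 to SW was higher in females by 0.86 ± 0.30 (SE; limma, adjusted p = 0.28), Mest by 0.72 ± 0.32 (limma, adjusted p = 0.52), and Nnat, at -1.08 ± 0.45 in females relative to males (limma, adjusted p = 0.47). The Nnat call in females and its absence in males is therefore not shown to be a sex difference. The change from p21 to DW was not tested for a sex difference, so its calls in 1 sex are not shown to be one either.

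Some of these genes shared the deviations of single mice from their group mean. Of the 45 pairs of genes, 8 had a within-group Pearson's r above 0.5 and 1 had an r below -0.5, over 24 mice and as a description. Peg3 and Plagl1 had the highest, r = 0.83 (rho = 0.79, and r = 0.72 without the 2 mice farthest in Peg3). Plagl1 also varied with Dlk1 (r = 0.66) and Igf2 (r = 0.65), and Grb10 with Mest (r = 0.64) and Peg3 (r = 0.63). Igf2 and Ndn had the lowest, r = -0.53. Peg3, Plagl1 and Grb10 varied in the same way with the sum of 9 adipose progenitor markers (r = 0.69, 0.72 and 0.74) and in the opposite way with the sum of 6 lymph node markers (r = -0.64, -0.52 and -0.68). The part of cell make-up in the shared variation was not tested.

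**Figure D3:**
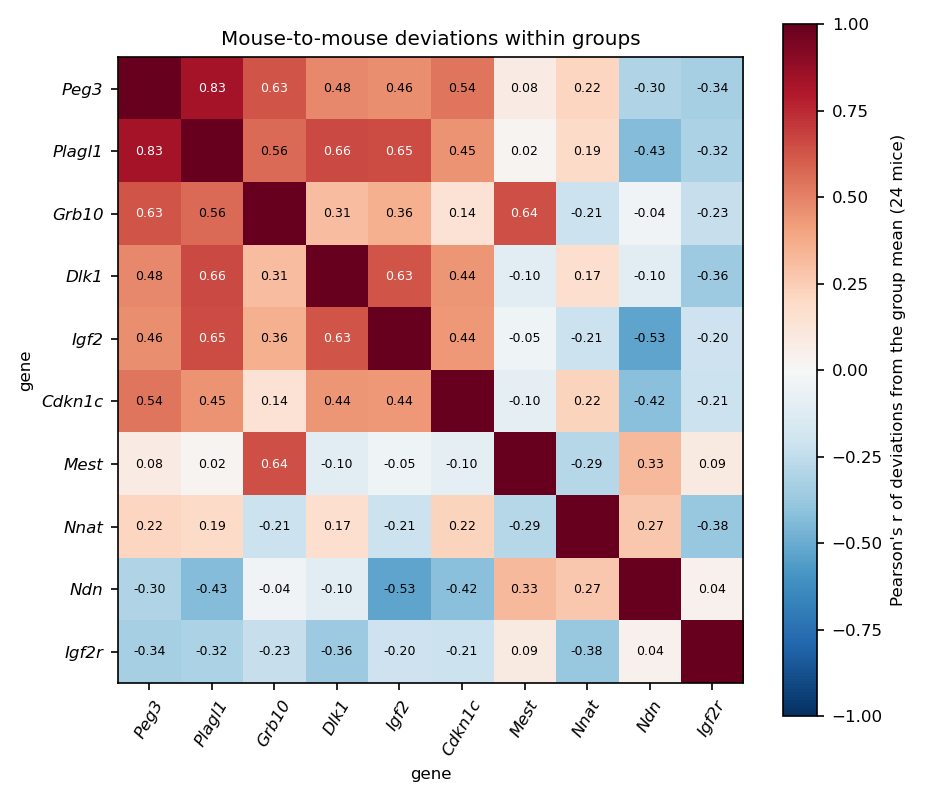
Pearson's r (colour, -1 to 1, and printed values) between each pair of the 10 genes (both axes), computed on deviations of log2(value + 1) from the group mean over 24 mice. Peg3, Plagl1, Grb10, Dlk1, Igf2 and Cdkn1c have positive values with each other, with the highest between Peg3 and Plagl1 (0.83), while Ndn and Igf2r have negative values with all 6.

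Over all 24 mice, group differences included, each gene was set beside the 13077 tested genes of at least a log2 value of 1. The genes most like Dlk1 were Nolc1 (Pearson's r = 0.93), Shmt1 (0.92) and Rhbdl3 (0.92). Those most like Mest were Prrg3 (0.90), Gnb4 (0.86) and Cenpe (0.86), of which Cenpe encodes a motor protein of the mitotic spindle. Those most like Ndn were Tuba1b (0.86), Rcc1 (0.86) and Gart (0.85), and those most like Nnat were Slc6a13 (0.80), Phgdh (0.79) and Cep68 (0.77). Among those most like Peg3 were Adamts12 (0.89) and Ifi204 (0.85), and for Plagl1 they were Gspt2 (0.87), Igfbp3 (0.85) and Slit2 (0.85). For Grb10 they were Nrk (0.90), Stxbp6 (0.89) and Aspn (0.84), and for Igf2r Pxdn (0.82), Tbc1d16 (0.81) and Tln2 (0.78). For Igf2 they were Setd3 (0.83), Topors (0.83) and Eif3a (0.81), and for Cdkn1c Slc39a6 (0.85), Ing2 (0.83) and Rtraf (0.82). These are the highest of many values and are descriptions.

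Of 43 other imprinted genes measured, from a list of 50, 4 rose and 2 fell from p21 to SW in females, 1 rose and 4 fell in males, 2 rose and 0 fell from p21 to DW in females, and 2 rose and 4 fell in males. Over all genes 7.39% rose and 4.23% fell, 6.90% rose and 4.97% fell, 5.95% rose and 6.16% fell, and 8.86% rose and 6.10% fell in the same order. Their median change lay between -0.05 and 0.03 in these comparisons. Ppp1r9a, which encodes the actin-binding protein neurabin, rose in all 4 (by 0.42 to 0.53, limma adjusted p = 0.0091 to 0.036). Magel2, a neighbour of Ndn and of the same protein family, fell in 3 of the 4, with p28 means of 0.056 to 0.067 in them. Its female call was lost with the tissue scores as covariates (-0.83, limma adjusted p = 0.16, against -0.71 in the reported fit). Rasgrf1, an exchange factor for Ras, was 1.36 ± 0.82 (SD, n = 4) in p21 females, 7.35 ± 2.06 in SW females and 3.05 ± 0.97 in DW females, against 0.28 ± 0.44 in SW males. It rose from p21 to SW in females by 1.87 (limma, adjusted p = 1.9e-05), was lower in DW than SW females by -1.04 (limma, adjusted p = 0.035), and its change with age differed between the sexes by 1.75 (limma, adjusted p = 0.0094). The mammary marker sum was 41.8 to 160 in p21, 260 to 362 in SW and 98.6 to 216 in DW females. With the tissue scores, mammary score included, as covariates, the Rasgrf1 rise from p21 to SW in females was 0.93 (limma adjusted p = 0.018), and the differences by weaning (-0.52, limma adjusted p = 0.48) and by sex (0.85, limma adjusted p = 0.23) were not called. The Ppp1r9a changes were called with them in all 4 comparisons (0.51 to 0.78, limma adjusted p = 0.0098 to 0.047).

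Partners of these genes were read from the same fit. Of 18 measured genes of the IGF axis, 2 rose and 1 fell from p21 to SW in females, 1 rose and 2 fell in males, 1 rose and 1 fell from p21 to DW in females, 2 rose and 1 fell in males, and 0 changed between SW and DW in either sex. Over all genes 7.39% rose and 4.23% fell, 6.90% and 4.97%, 5.95% and 6.16%, and 8.86% and 6.10% in the same order. Between SW and DW 0.462% of all genes were higher and 0.812% lower in females, and 0.231% and 0.0250% in males. In females from p21 to SW, Igfbp6, an IGF-binding protein, rose by 1.55 (limma, adjusted p = 0.0020) and Stc2, which encodes stanniocalcin 2, by 1.30 (limma, adjusted p = 0.0035). Both calls were lost with the tissue scores as covariates (1.39 and 0.49, limma adjusted p = 0.15 and 0.57). Stc2 was also higher in females than males after SW (2.22, limma adjusted p = 7.5e-06), which was 0.61 with the tissue scores (limma adjusted p = 0.74). Igfbp3, a carrier of IGFs in serum and tissue, fell from p21 to SW in both sexes (-0.84 in females and -0.76 in males, limma adjusted p = 0.016 and 0.030) and from p21 to DW in females (-0.92, limma adjusted p = 0.0098). The Igfbp3 calls after SW were lost with the tissue scores as covariates (-0.85 and -0.86, limma adjusted p = 0.21 and 0.093). Igf1, the postnatal IGF, and the receptors Igf1r and Insr were not called in any comparison, and group means were 346.5 to 462.4 for Igf1, 38.6 to 43.2 for Igf1r and 100.4 to 133 for Insr. Adam17, whose protease sheds DLK1 from the membrane, was not called either, with group means of 63.6 to 71.7. A further list held 9 genes of the Notch pathway, for which DLK1 is a non-canonical ligand, and partners of Dlk1. Of these, Sox9 rose in females from p21 to SW (1.12, limma adjusted p = 0.0014, and 0.41 with the tissue scores as covariates, limma adjusted p = 0.50). Notch4 rose in males from p21 to DW (0.97, limma adjusted p = 0.027). Sox9 was also higher in females than males after SW (2.38, limma adjusted p = 8.1e-08), which was 1.09 with the tissue scores (limma adjusted p = 0.72). Of 14 CDK inhibitor and G1 cyclin genes, which act beside Cdkn1c, 4 fell in SW females, 3 in SW males, 1 in DW females and 2 in DW males against p21, and 0 rose, where 4.23%, 4.97%, 6.16% and 6.10% of all genes fell. Ccne2, a cyclin E gene, fell most in SW males (-0.94, limma adjusted p = 0.0020, and 0.033 with the tissue scores as covariates). Ccne1, also encoding a cyclin E, was among them in all 4 (-0.34 to -0.43, limma adjusted p = 0.0044 to 0.025). After SW its call was lost with the tissue scores as covariates (-0.50 in females and -0.38 in males, limma adjusted p = 0.080 and 0.088). The calls of Cdk2, Cdkn1a and Ccne2 in SW females and of Cdk4 in SW and DW males were lost with them too (limma adjusted p = 0.12 to 0.45). With the scores, Cdk2, Cdkn1a and Ccne2 changed by -0.35, -0.86 and -0.48 in SW females, against -0.32, -0.75 and -0.63 in the reported fit. Cdk4 changed by -0.36 in SW and -0.26 in DW males, against -0.40 and -0.33.

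**Figure D4:**
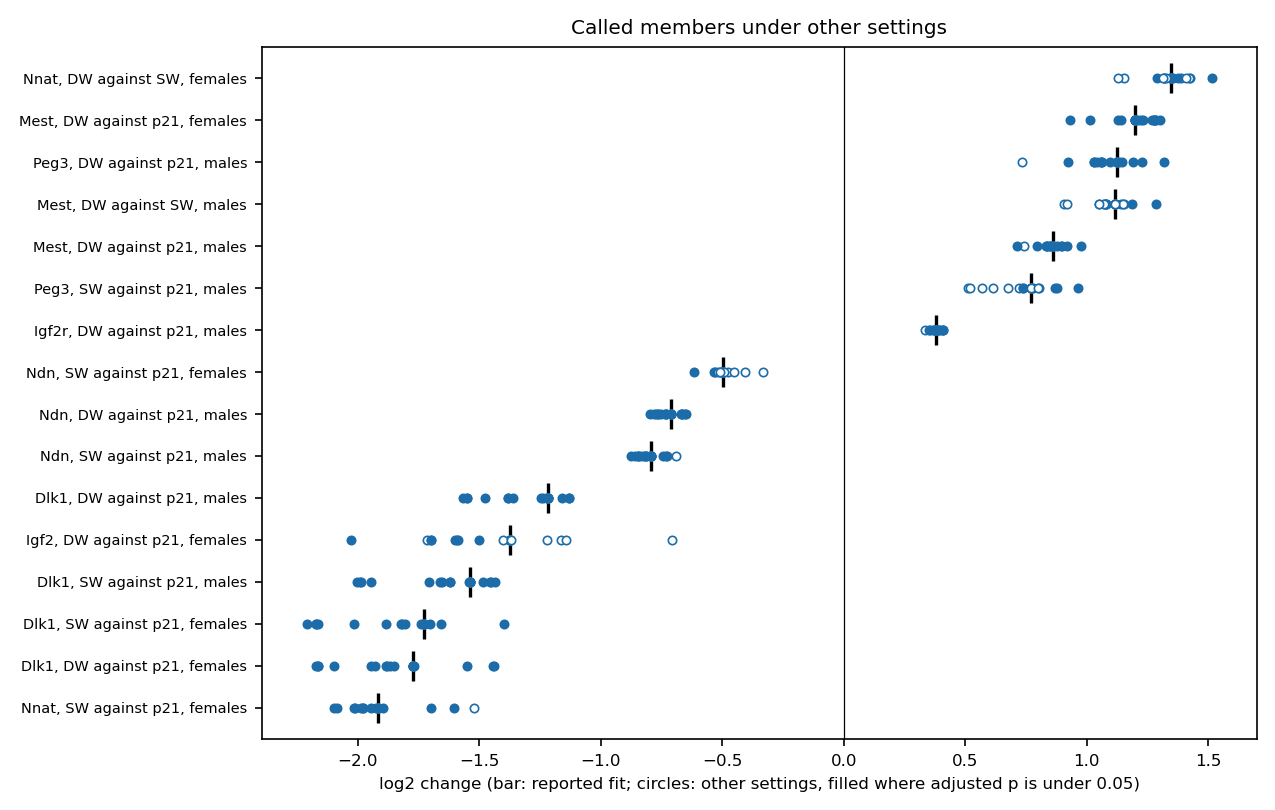
Log2 change (horizontal axis) of the 16 called combinations of gene and comparison in the reported fit (black bars) and in the other settings, single mice left out included (circles, filled where the adjusted p is under 0.05). No circle crosses 0, the rows of Dlk1 and of Mest from p21 to DW in females are filled throughout, and 5 rows (Nnat and Mest from SW to DW, Ndn in females and Peg3 in males from p21 to SW, and Igf2) hold 9 to 11 open circles.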

How the data were processed

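The authors deposited 1 table of signal per gene and library, which are reads scaled by a library factor. Per the submitters' processing notes, fastp, HISAT2, featureCounts, DESeq2 1.38.3 and mm10 were used. Strand setting and annotation are not given in the sources used here. Deposited gene positions did not match GRCm38, so genes carry only a chromosome. Groups follow the labels for age, sex and weaning, which disagree with the p21 titles. Of 16208 rows, 90 repeats were left out. All deposited values (100%, within 0.001) were whole multiples of what 1 read is worth, so whole reads were recovered. No replicate pair agreed within sampling noise (36 pairs, smallest chi-square per degree of freedom 77.11). Molecular identifiers are not mentioned, so counting error may be understated.

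The test was limma 3.58.1 (R 4.3.3) on log2(value + 1), which understates changes of low genes, with 1 mean for each of 6 groups over 24 mice, 18 residual degrees of freedom, a variance trend and filterByExpr (minimum count 10). Genes with a Benjamini-Hochberg adjusted p under 0.05 over all 16005 were called; intervals are 95% and unadjusted for multiple tests. On simulated data for SW against p21 in females, 123 of 200 genes changed by 1 (log2) were recovered with 7 false calls, over 16005 genes. Simulated reads were drawn for each gene on its own, without variation shared between genes, so the real rate of false calls may differ. Alternatives were edgeR 4.0.16 and DESeq2 1.42.0 on recovered reads, filters, pseudocount, covariates, sample subsets and each mouse left out.

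The 10 genes and all gene lists were chosen with earlier results of these data known. All 10 genes are described, with a change and p where called; genes of other lists could be named where called and among the 5 smallest adjusted p of their list and comparison, and only some of these are named, and Igf1r, Insr, Igf1 and Adam17 as partners. For each gene the 3 genes with the highest Pearson's r over 24 mice were taken as most like it, of which 1 is not reported here. Values and tests of genes not called were added where the groups did not overlap or 1 mouse decided the call, chosen after their values were seen. Lengths are GENCODE M21 exon unions. Promoters are from a RefSeq table matched by symbol (9 of 10 genes; Cdkn1c unmatched), cut to the 250 bases before the start.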

Additional observations from a re-analysis of the deposited data

Results flagged for a closer look

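In 60 groups of 4 mice (10 genes in 6 groups), 3 held a mouse set apart from the others of its group beyond Dixon's critical value for 4; chance alone gives about 3. Nnat was 413 in SW male 124, against 137 to 183 in the other SW males, a gap of 0.835 of the range. Peg3 was 170.0 in p21 female 30, against 72.1 to 74.4, a gap of 0.976. Dlk1 was 23.5 in the same mouse, against 7.94 to 9.51, a gap of 0.899. That female was also the highest of its group in Nnat, Plagl1, Igf2, Cdkn1c and Grb10 and the lowest in Mest and Igf2r.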

How the results depend on the processing

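Of the 16 called combinations of gene and comparison, 5 were called in every alternative run: the 4 Dlk1 changes with age and the Mest change from p21 to DW in females. None of the 16 changed sign. Fewest alternatives kept the call for Peg3 from p21 to SW in males (7 of 18), Mest (8 of 19, males) and Nnat (9 of 20, females) from SW to DW, Ndn from p21 to SW in females (9 of 18) and Igf2 (10 of 19). With tissue scores as covariates the number of the 10 genes called became 1 for SW against p21 in females, 1 in males and 2 for DW against p21 in males. A call lost with these scores does not by itself show a smaller change. For DW against SW in females it was 0 in edgeR with either normalization, with a pseudocount of 0.1, with tissue scores, with only the compared groups and, chosen after seeing the data, without DW females 82 and 83, and 2 in DESeq2. In males it was 0 in both edgeR fits, with tissue scores and without p21 male 53 and SW male 84. Leaving out each mouse gave 0 to 3 called genes for DW against SW in females and 0 to 1 in males. The cause of these shifts was not tested, and a fit without a mouse also holds fewer mice. None of the 10 genes was called between the sexes or in an interaction in any setting.

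Over all genes the calls also moved, for DW against SW in females from 204 to between 1 (only the compared groups) and 1996 (without DW female 76), and in males from 41 to between 10 (without DW male 87) and 134. SW against p21 ran from 421 to 2445 in females and 594 to 2562 in males, DW against p21 from 486 to 3123 and 833 to 3077. No paired analysis was possible because animal numbers are not shared between groups. Depth limits Igf2 most, with 34 reads in the shallowest value.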
